A study of Mus musculus with 12 samples.

Results

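Nkx2-3, Eya1 and Six4 encode developmental regulators that were followed across the 4 constructs of this series, with 1 probe set each. The probe sets were those annotated to exactly 1 of these symbols. They made up 3 of the 35556 probe sets on the array and 3 of the 19938 genes that had a probe set with a single symbol. The genes were picked with the comparison of the minimal fusion against the empty vector in view, so their values in that comparison, and in any other that uses those arrays, are given as a description with no test. Only CALM-AF10 against its OM-LZ deletion lay outside that choice, and it was tested.

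The series measured gene expression by microarray in retrovirally transduced adult mouse bone marrow, with 3 biological replicates of each of 4 constructs. CALM-AF10 is a leukaemia fusion of the clathrin adaptor CALM with the chromatin-bound protein AF10. In the construct ΔOM-LZ the same fusion lacks OM-LZ, the octapeptide motif and leucine zipper through which AF10 binds the histone methyltransferase DOT1L. The minimal fusion, CALM(400-648)+AF10(677-758), joins a fragment of CALM to a fragment of AF10 that covers this region, and MIG is the empty vector. Every group, MIG included, came from C57/BL6/C3H mice treated with 5-fluorouracil, which depletes cycling cells. In every group the marrow was stimulated for 48 h, overlaid on virus-producing GFP+E86 cells irradiated with 40 Gy, with cytokines and 5 µg/ml protamine sulfate, and then sorted for GFP. RNA was collected 96 h after transduction. A retroviral insertion differs from cell to cell, so each array read a mixed pool. The labels do not tie replicates to separate animals, so p-values measure only the spread between these samples.

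NKX2-3 is a homeodomain transcription factor of the NK2 class that is known for patterning spleen and gut vasculature and for lymphocyte homing. Sine oculis homeobox proteins, Six4 among them, bind DNA through a homeodomain and a neighbouring protein interaction domain. EYA proteins bind to them, do not bind DNA on their own, and act as coactivators and as phosphatases. Together with DACH and PAX proteins they form a network that controls growth of eye, ear, kidney and muscle precursors.

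Values are log2 intensities. Since brightness also differs with the probes, no gene's level was compared with another gene's. As a guide to how bright each probe set was, averaged over the 12 arrays, Nkx2-3 ranked at percentile 57.9 of all probe sets in brightness, Eya1 at 60.1 and Six4 at 31.9. Array medians lay between 6.581 and 6.686. Arrays of 1 construct correlated with each other at r = 0.977 to 0.9897. All 8 blood cell markers, among them Ptprc and Spi1, were above the array median in each group.

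Nkx2-3 was higher with the minimal fusion than with any other construct, by 1.82 to 2.16-fold. With the empty vector its probe set (10463277) read 7.05, 6.66 and 6.87. With CALM-AF10 it read 7.21, 7.04 and 7.07. With ΔOM-LZ it read 6.68, 6.98 and 7.04. The minimal fusion stood apart from these, and its 3 arrays overlapped with no other group. They read 7.98, 7.73 and 8.21. The lowest of them, 7.73, was 0.52 above the brightest of the other 9 arrays, which together spanned only 0.54. The order of the means was MIG (6.86 ± 0.19, SD, n = 3), ΔOM-LZ (6.90 ± 0.19), CALM-AF10 (7.11 ± 0.09) and the minimal fusion (7.97 ± 0.24). MIG overlapped with ΔOM-LZ, and ΔOM-LZ with CALM-AF10.

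The minimal fusion exceeded MIG by 1.11 on the log2 scale (SE 0.15) for Nkx2-3. Nkx2-3 was 1 of 8 probe sets that passed the adjusted p in that comparison, or 0.0342% of the 23410 tested. This was the comparison that chose it, so nothing is read from the call, and the count of called probe sets ran from 1 to 9 when 1 array was left out. The excess over ΔOM-LZ was 1.07 (SE 0.15), where 4 probe sets passed (0.0171%) and Nkx2-3 was not among them. The excess over CALM-AF10 was 0.87 (SE 0.15), where only Hoxa9, a homeobox gene of the HOXA cluster, passed (0.00427%). These 3 differences share the minimal fusion arrays and are not separate evidence.

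Bases upstream of the Nkx2-3 start are shown because this gene had the narrowest spread outside the minimal fusion. The 250 bases come from RefSeq (GRCm38.p6), at chr19:43612075-43612324 on the plus strand, which is also the gene's strand. Capitals mark a CCAAT box read on both strands, the 2 copies overlapping in the stretch CCAATTGG, and a GC box, GGGCGG, read on the opposite strand as CCGCCC.
Nkx2-3: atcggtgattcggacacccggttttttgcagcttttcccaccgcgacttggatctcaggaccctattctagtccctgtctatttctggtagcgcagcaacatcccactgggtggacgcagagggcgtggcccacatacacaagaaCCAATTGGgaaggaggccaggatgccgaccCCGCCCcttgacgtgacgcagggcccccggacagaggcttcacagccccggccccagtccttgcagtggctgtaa
The CCAAT copies began 105 and 102 bases before the start and the GC box 75 bases before it. Of 32851 windows of this length upstream of RefSeq starts, 33.8% held CCAAT and 32.7% held GGGCGG on either strand. The window held 14 CG dinucleotides against a median of 6, and was 60.0% G and C against a median of 52.4%. It held no match to the MEF3 motif of sine oculis proteins, TCAGGTT (3.5% of windows), the NK2 motif TNAAGTG (10.1%) or the HOX-PBX motif TGATNNAT (7.7%). The array measures RNA, not binding, so a match is not a binding site and no match says nothing of a factor. For Eya1 no upstream sequence was at hand, so its upstream bases were not searched.

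Eya1 showed the largest difference of the 3 genes with the minimal fusion, 3.85-fold over the empty vector, and also the widest spread within the other groups. Its probe set (10353192) read 6.6, 6.92 and 7.71 with MIG. With CALM-AF10 it read 7.60, 6.0 and 7.29. With ΔOM-LZ it read 7.09, 5.98 and 6.41. These 9 arrays overlapped throughout and spanned 1.73, with the lowest values in replicate 2 of both CALM-AF10 and ΔOM-LZ. The minimal fusion read 9.21, 8.85 and 9.0, above every other array. Its lowest array was 1.14 above the highest of MIG, 1.25 above that of CALM-AF10 and 1.76 above that of ΔOM-LZ.

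In order, Eya1 averaged 6.49 ± 0.56 with ΔOM-LZ, 6.97 ± 0.85 with CALM-AF10, 7.08 ± 0.57 with MIG and 9.02 ± 0.18 with the minimal fusion (SD, n = 3). The first 3 could not be ordered beyond their spread. The minimal fusion exceeded MIG by 1.94 (SE 0.42), CALM-AF10 by 2.05 (SE 0.42, 4.16-fold) and ΔOM-LZ by 2.53 (SE 0.42, 5.77-fold) on the log2 scale. For Eya1 the SE was 0.42 in each of them, against 0.15 for Nkx2-3. Eya1 passed the adjusted p in none of the comparisons, which for those with the minimal fusion is a description only. The arrays are bulk samples, so fewer cells of a type and less RNA per cell cannot be told apart for any gene here.

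Six4, a DNA-binding partner of EYA proteins, overlapped between all 4 constructs. Its probe set (10400971) read 5.41, 5.64 and 5.42 with MIG and 5.21, 5.54 and 5.75 with CALM-AF10. It read 5.03, 5.88 and 5.34 with ΔOM-LZ. With the minimal fusion it read 5.09, 6.59 and 5.78. Replicate 1 was the lowest array in each of the 4 constructs, and replicate 2 of the minimal fusion was the highest of all 12 arrays. The means were 5.42 ± 0.43 with ΔOM-LZ, 5.49 ± 0.13 with MIG, 5.50 ± 0.27 with CALM-AF10 and 5.82 ± 0.75 with the minimal fusion (SD, n = 3), and no neighbours in this order differed beyond their spread.

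For Six4 the minimal fusion was 0.33 above MIG (SE 0.33), 0.32 above CALM-AF10 and 0.40 above ΔOM-LZ on the log2 scale. The difference rested on single arrays. Without replicate 2 of the minimal fusion the difference from MIG was −0.06, and without its replicate 1 it was 0.70. The same range ran from −0.07 to 0.68 against CALM-AF10 and from 0.02 to 0.77 against ΔOM-LZ.

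**Figure D1:**
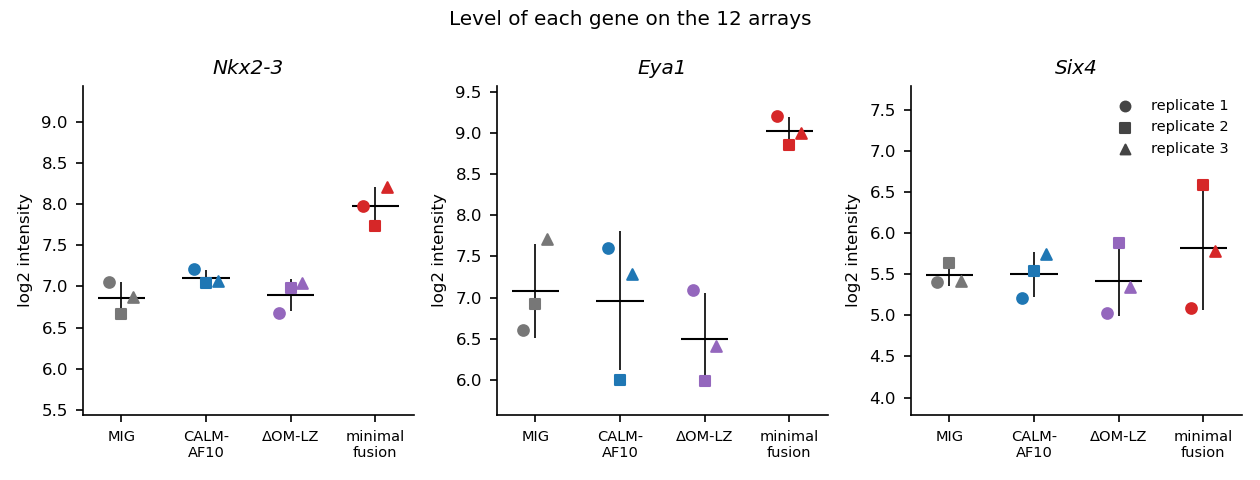
Log2 intensity of Nkx2-3, Eya1 and Six4 on each of the 12 arrays, by construct; points are arrays, bars are group means with SD (n = 3), and every panel spans the same log2 range. Minimal fusion arrays lie above all others for Nkx2-3 (7.73 to 8.21) and Eya1 (8.85 to 9.21), while Six4 overlaps between all constructs.

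Between MIG and the minimal fusion, 12.1% of the 23410 probe sets had groups that did not overlap, 6.08% with the minimal fusion higher. With the minimal fusion higher the share was 3.7% against ΔOM-LZ and 2.06% against CALM-AF10. Nkx2-3 and Eya1 were among these in all 3 comparisons and Six4 in none. As the genes were chosen on the first of them, the count says nothing further about the group. Against MIG, groups without overlap in either direction made up 9.31% of probe sets for CALM-AF10 and 8.04% for ΔOM-LZ, and none of the 3 genes was among them. By limma 0 of 23410 probe sets passed the adjusted p in either comparison (0.0%), with 1231 and 927 at an unadjusted p under 0.05. For CALM-AF10 the differences from MIG were 0.24 for Nkx2-3, −0.11 for Eya1 and 0.01 for Six4. For ΔOM-LZ they were 0.04, −0.58 and −0.07 in the same order. With 1 array left out, Eya1 with CALM-AF10 ran from −0.43 (without CALM-AF10 replicate 1) to 0.37 (without CALM-AF10 replicate 2), and Six4 from −0.11 to 0.16. With ΔOM-LZ, Nkx2-3 ran from −0.06 to 0.15 and Six4 from −0.31 to 0.12, so these 4 differences have no settled sign. With the mean of the minimal fusion and CALM-AF10, which carry OM-LZ, set against the mean of MIG and ΔOM-LZ, which lack it, 3 probe sets passed (0.0128%) and none was of these genes. There Eya1 differed by 1.21 (SE 0.30), Nkx2-3 by 0.66 (SE 0.10) and Six4 by 0.21 (SE 0.23), all with overlap.

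**Figure D2:**
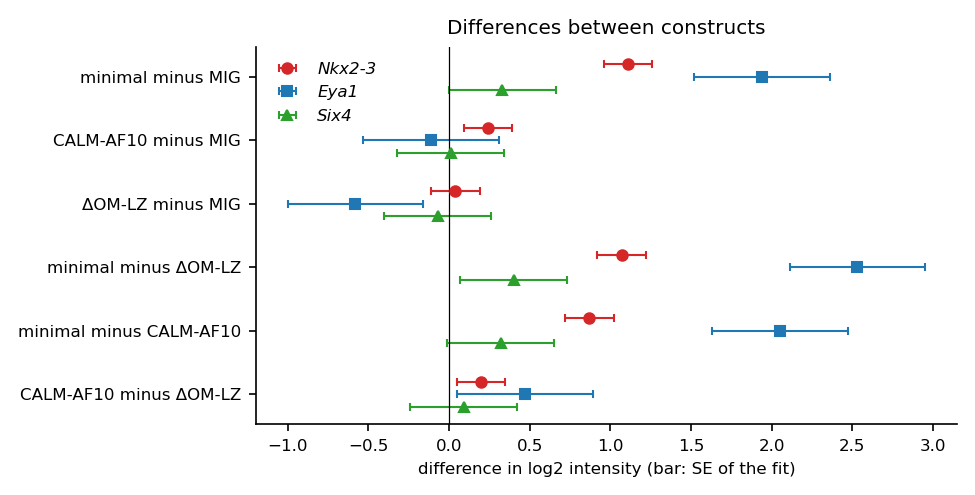
Log2 differences between constructs for Nkx2-3, Eya1 and Six4, with bars for the SE of the linear model over 12 arrays. The comparisons with the minimal fusion lie at 0.87 to 1.11 for Nkx2-3, 1.94 to 2.53 for Eya1 and 0.32 to 0.40 for Six4; the SE is 0.15 for Nkx2-3, 0.42 for Eya1 and 0.33 for Six4.

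CALM-AF10 against ΔOM-LZ asks what removal of the OM-LZ part does within the full fusion, and here no difference was detected for any of the 3 genes. Across all genes 0 of 23410 probe sets passed the adjusted p (0.0%), by limma and also by its trend and robust options, while 528 had an unadjusted p under 0.05. Groups without overlap made up 6.76% of probe sets, and none of the 3 genes was among them. Nkx2-3 was 0.20 higher with CALM-AF10 (95% interval −0.12 to 0.53, limma adjusted p = 0.9999, exact two-sided permutation p = 0.2). Eya1 was 0.47 higher (−0.45 to 1.40, limma adjusted p = 0.9999, exact permutation p = 0.4). Six4 was 0.09 higher (−0.64 to 0.81, limma adjusted p = 0.9999, exact permutation p = 0.8). With 3 arrays against 3 the exact test cannot give a p below 0.1. The interval for Eya1 leaves room for a difference of more than 1 log2 unit in favour of CALM-AF10, so equal levels are not shown.

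Same-numbered arrays of CALM-AF10 and ΔOM-LZ deviated together over all genes (r = 0.729, 0.722 and 0.697), which no other pair of constructs showed in every replicate. Taken by number, Eya1 was higher with CALM-AF10 in 3 of 3 pairs, by 0.51, 0.03 and 0.88. Nkx2-3 was likewise higher in 3 of 3 pairs, by 0.52, 0.06 and 0.02. Six4 differed by 0.19, −0.34 and 0.41, and was higher in 2 of 3. In a paired fit of these 6 arrays, chosen after seeing the data, the limma adjusted p was 0.3134 for Eya1, 0.4916 for Nkx2-3 and 0.8295 for Six4. The low value of Eya1 in replicate 2 of both constructs, 6.0 and 5.98, is part of this pairing. For Eya1 the unpaired difference ran from 0.15 without CALM-AF10 replicate 1 to 0.95 without CALM-AF10 replicate 2.

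None of the other sine oculis genes examined passed the test. Of these 4 genes (Six2, Six3, Six5 and Six6), 0 passed the adjusted p in any comparison by limma, and 0 of 4 had an unadjusted p under 0.05 in any. Against MIG the minimal fusion differed by 0.08 for Six2, 0.19 for Six3 (adjusted p = 0.7627), 0.08 for Six5 and −0.08 for Six6 (adjusted p = 0.8801). Six2 and Six3 are regulators of kidney and forebrain precursors and Six6 acts in the eye. The median of the 4 was 0.08, beside 0.00 for all probe sets tested in that comparison. With Six4 counted, only 1 of the 5 measured sine oculis genes had a mean above the array median in each group. Six6 was the only one of the 4 whose groups did not overlap, with the minimal fusion lower, as in 6.0% of all probe sets (5.48, 5.52 and 5.52 against 5.53, 5.63 and 5.61).

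Of the EYA genes other than Eya1, none passed in any comparison by limma, and 0 of 3 had an unadjusted p under 0.05. Eya2 was 0.40 lower with the minimal fusion than with MIG (log2 difference −0.40, SE 0.53, adjusted p = 0.8948). Its arrays read 7.61, 8.22 and 8.47 with MIG, and 8.42, 7.20 and 7.47 with the minimal fusion, so the groups overlapped. With CALM-AF10 Eya2 read 8.93, 7.14 and 8.22, and with ΔOM-LZ 9.13, 7.34 and 7.95. The 3 highest Eya2 arrays came from ΔOM-LZ, CALM-AF10 and MIG, and none from the construct where Eya1 was highest. Eya3 stayed between 9.81 and 10.24 on all 12 arrays and Eya4 between 4.90 and 5.24.

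**Figure D3:**
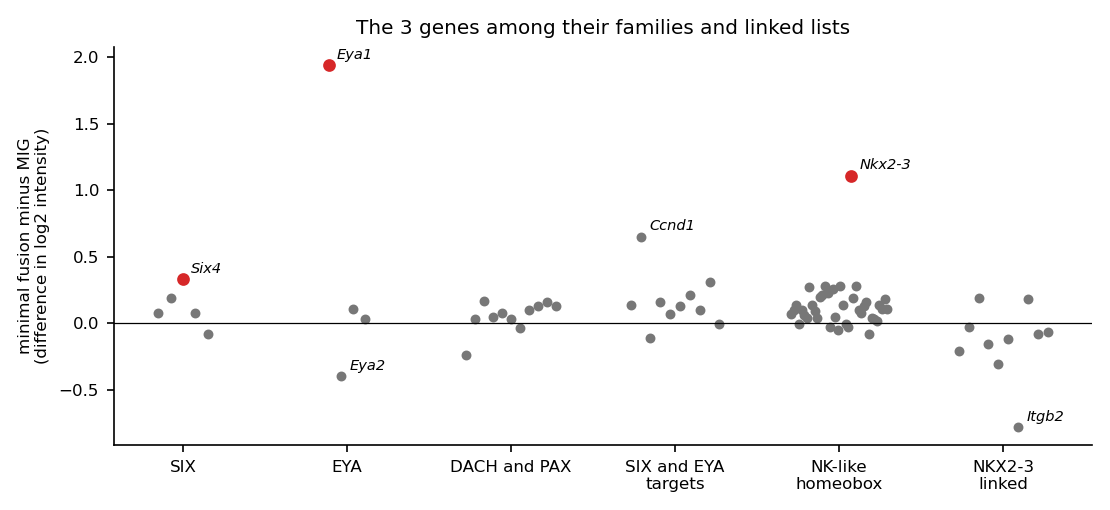
Log2 difference between the minimal fusion and MIG for each measured gene of the lists, 1 column per list, with Nkx2-3, Eya1 and Six4 in red and Ccnd1, Itgb2 and Eya2 named. Eya1 (1.94) and Nkx2-3 (1.11) lie far above the other genes of their families, whose medians without the marked genes are 0.03 for EYA, 0.08 for sine oculis and 0.10 for NK-like genes.

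DACH and PAX partners of the network showed no called member. Most were dim, and 2 of the 11 had a mean above the array median with MIG and 2 with the minimal fusion. All 11 were measured, 9 were higher and 2 lower with the minimal fusion than with MIG, and the median was 0.08. As a mean log2 deviation per array, the list read −0.04, 0.06 and −0.09 with MIG. It read −0.04, −0.03 and 0.17 with the minimal fusion, so the groups overlapped. By limma 0 passed and 0 had an unadjusted p under 0.05. Dach1, a corepressor that joins the complex, was at −0.24 (adjusted p = 0.82). The skeletal patterning genes Pax1 and Pax9 were at 0.17 (adjusted p = 0.8377) and 0.16 (adjusted p = 0.8378).

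Of 10 genes known as targets of sine oculis or EYA proteins, 8 were higher and 2 lower, with a median of 0.13. As a mean log2 deviation per array, the list read −0.03, −0.04 and −0.09 with MIG. It read 0.09, 0.09 and 0.15 with the minimal fusion, without overlap. It ran from −0.01 to 0.02 with CALM-AF10 and from −0.13 to −0.02 with ΔOM-LZ. For 3 of the 10 (Ccna1, Ccnd1 and Sall1) the minimal fusion lay above every MIG array, beside 6.08% of all probe sets. The list was chosen with earlier results of these data known. By limma 0 passed the adjusted p and 2, Ccnd1 and Sall1, had an unadjusted p under 0.05, as did 7.61% of all probe sets in this comparison. Ccnd1, which encodes the G1 cyclin D1, came nearest. It read 6.48, 6.73 and 6.45 with MIG and 7.13, 7.24 and 7.23 with the minimal fusion. The difference was 0.65 (1.56-fold, SE 0.09, adjusted p = 0.05945), just outside the threshold of 0.05. Ccnd1 of the minimal fusion also lay above all arrays of ΔOM-LZ (0.48, adjusted p = 0.331) and of CALM-AF10 (0.52, adjusted p = 0.608). Sall1, a zinc-finger regulator of kidney development, was at 0.31 (adjusted p = 0.5754), and the muscle regulator Myog at 0.21 (adjusted p = 0.6951).

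Among 40 NK-like homeobox genes, 38 were measured. Of the 37 others 31 were higher and 6 lower with the minimal fusion than with MIG. This lean was not shared by all arrays. As a mean log2 deviation per array, the 38 read −0.03, −0.03 and −0.15 with MIG. They read −0.03, −0.02 and 0.25 with the minimal fusion. Replicate 2 read 0.14 with CALM-AF10 and 0.21 with ΔOM-LZ. For the 37 other genes the following held between the minimal fusion and MIG. Their differences ran from −0.08 to 0.28 with a median of 0.10, and by limma 0 passed and 0 had an unadjusted p under 0.05. The 3 with the largest moderated statistic were Nkx1-1 at 0.28 (adjusted p = 0.6711), the heart regulator Nkx2-5 at 0.28 (adjusted p = 0.7529) and Lbx1 at 0.23 (adjusted p = 0.7572). Of the 37, 4 had minimal fusion arrays above every MIG array, and the share among all probe sets was 6.08%.

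Genes linked to NKX2-3 through lymphocyte homing and B cell receptor signalling had no called member. Of 11 listed, 10 were measured, 2 were higher and 8 lower, and the median was −0.10. As a mean log2 deviation per array, the list read −0.12, 0.23 and 0.02 with MIG. It read 0.08, −0.26 and −0.10 with the minimal fusion, so the groups overlapped. By limma 0 passed and 1, Itgb2, had an unadjusted p under 0.05, again beside 7.61% of all probe sets. Itgb2, the β2 integrin chain of leukocytes, was 0.78 lower (log2 difference −0.78, SE 0.22, adjusted p = 0.4352). It read 10.53, 11.16 and 10.94 with MIG and 10.35, 9.67 and 10.26 with the minimal fusion, without overlap. Itgb2 differed by −0.76 between the minimal fusion and ΔOM-LZ (adjusted p = 0.8008). Madcam1, the gut vessel addressin that needs NKX2-3 in endothelium, was at 0.18 (adjusted p = 0.8094), and the B cell homing receptor gene Cxcr5 at 0.19 (adjusted p = 0.7695).

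No neighbouring gene on the chromosome passed the test. Up to 3 genes with a probe set were taken on each side from RefSeq's order (GRCm38.p6), and 0 were called in any comparison. For Nkx2-3 the neighbours were Hpse2 (−0.06), Cnnm1 (0.05) and Got1 (−0.42, adjusted p = 0.751) on one side. On the other were Slc25a28 (0.17, adjusted p = 0.734), Entpd7 (0.00) and Cox15 (0.19, adjusted p = 0.791). For Eya1 they were Tram1 (0.05), Lactb2 (−0.38, adjusted p = 0.699) and Xkr9 (−0.10), then Msc (0.09, adjusted p = 0.866), Gm9947 (−0.01) and Trpa1 (0.29, adjusted p = 0.697). All are log2 differences of the minimal fusion from MIG. For Six4 the nearest with a probe set were Six6 (−0.08), 154.7 kb away, and Mnat1 (−0.17), whose span overlaps that of Six4. Ppm1a (−0.32, adjusted p = 0.7) and Slc38a6 (−0.56, adjusted p = 0.681) lay further out.

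**Figure D4:**
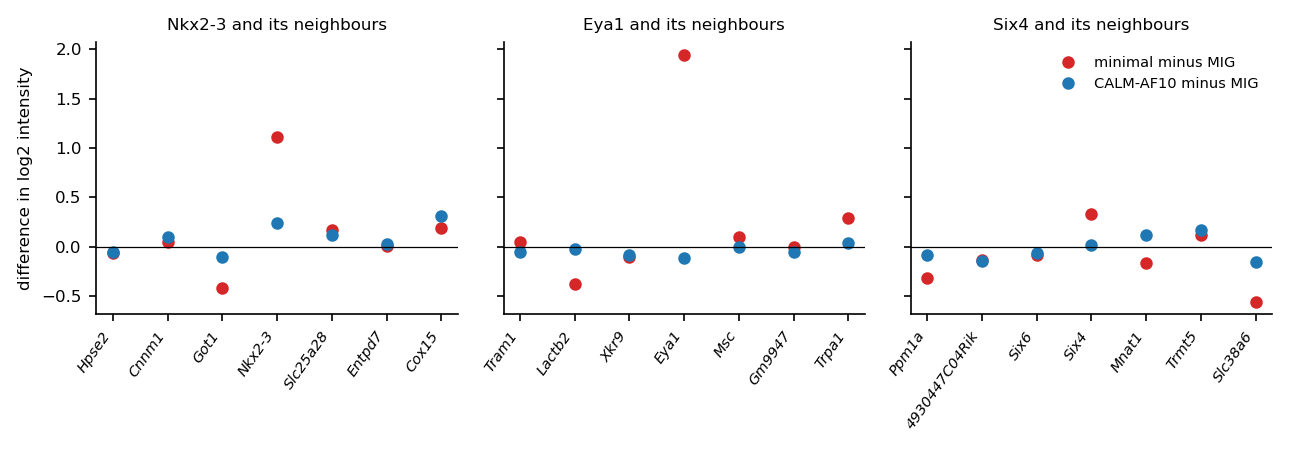
Log2 difference between the minimal fusion and MIG for Nkx2-3, Eya1 and Six4 and their neighbouring genes with a probe set, in chromosomal order, beside that between CALM-AF10 and MIG. With the minimal fusion Nkx2-3 (1.11) and Eya1 (1.94) exceed each neighbour drawn, the highest of which is Trpa1 at 0.29. With CALM-AF10 Cox15 is at 0.31.

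The MEF3 motif occurs before 1 of 2 starts listed for Six4, at chr12:73113245 and chr12:73113425 on the minus strand. The window before the first holds 1 match to TCAGGTT, 97 bases before that start, while the window before the second holds none. RefSeq's span of the gene, chr12:73099609-73114031, reaches past both starts, so the motif lies inside the annotated gene. The motif lies between the 2 starts and also inside the span of Mnat1. The 30 bases around it, chr12:73113324-73113353 on the plus strand of GRCm38.p6, opposite to the gene, are shown with the motif in capitals.
Six4: ggatctggccgaTCAGGTTtcccccaggcc
Of all upstream windows of the same length 3.5% hold this motif on either strand, and Six4 overlapped between all constructs.

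The genes most like each of the 3 across the arrays were ranked by Pearson r of log2 values over 12 arrays, out of 19935 genes. These are descriptions, and the minimal fusion arrays that chose the genes take part in them. For Nkx2-3 the 5 nearest were Hoxa9 (r = 0.952), Skida1 (0.933), Bahcc1 (0.924), Hoxa3 (0.92) and Hoxa6 (0.915). For Eya1 they were Mecom (0.976), Hoxa10 (0.943), Tsc22d1 (0.937), Hoxa5 (0.915) and Msi2 (0.908). For Six4 they were Dok4 (0.903), Ogfrl1 (0.884), Opa3 (0.879), Fchsd1 (0.865) and Msc (0.865). Msc is the nearest gene with a probe set on one side of Eya1, 442.3 kb away.

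Without the 3 minimal fusion arrays, Eya1 and Mecom, a zinc-finger regulator of blood stem cells, still correlated at r = 0.956 over the other 9 arrays. Mecom read 6.67, 6.68 and 7.86 with MIG, 7.26, 6.19 and 7.02 with CALM-AF10, 6.93, 6.01 and 6.45 with ΔOM-LZ, and 8.81, 8.67 and 8.13 with the minimal fusion. It was high and low on the same 9 arrays as Eya1, in the same rank order. Without the 2 arrays farthest from the median of Eya1, r was 0.92. Nkx2-3 and Hoxa9 had r = 0.716 over these 9 arrays, and 0.502 without the 2 farthest.

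Hoxa9 read 8.74, 8.44 and 8.81 with MIG, 9.03, 8.94 and 8.95 with CALM-AF10, 8.64, 8.57 and 8.63 with ΔOM-LZ, and 9.94, 10.09 and 10.13 with the minimal fusion. Nkx2-3 and Eya1 themselves had r = 0.801 over 12 arrays and −0.0875 over the other 9. Over the 9 arrays Eya1 had r = 0.839 with Eya2, which fell to 0.649 without the 2 farthest, and r = −0.407 with Six4. With all 12 arrays r was 0.135 for Eya1 and Eya2 and 0.169 for Eya1 and Six4. The points share arrays, and same-numbered arrays of CALM-AF10 and ΔOM-LZ deviate together, so the 9 are not independent.

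**Figure D5:**
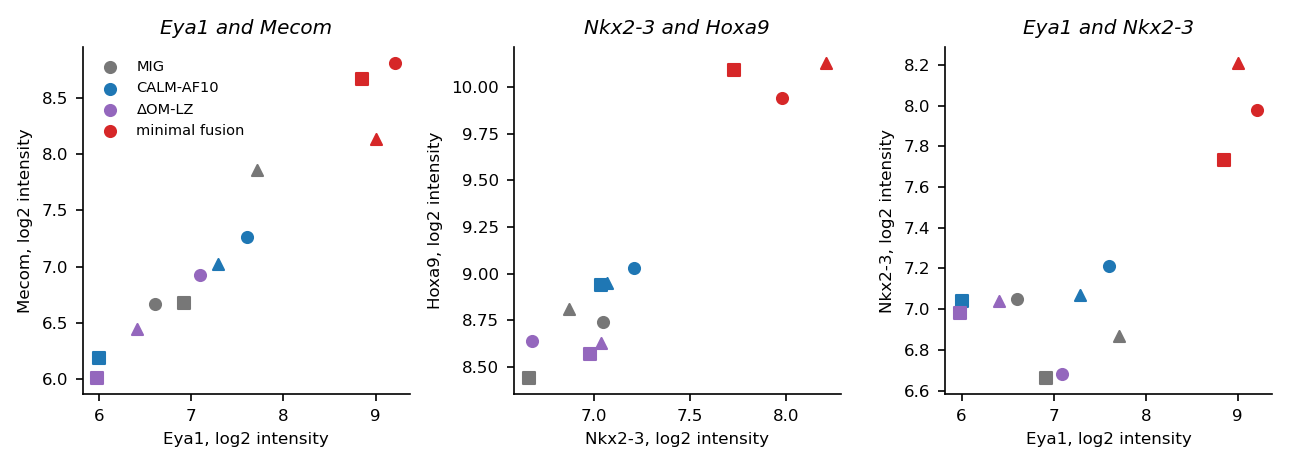
Log2 intensity on the 12 arrays of Eya1 against Mecom, Nkx2-3 against Hoxa9, and Eya1 against Nkx2-3, coloured by construct with symbols for replicate numbers. Over the 9 arrays without the minimal fusion r is 0.956, 0.716 and −0.0875 in that order, and the minimal fusion arrays lie at the upper right of each panel.

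Markers of other cell types were examined beside these genes. Megakaryocyte markers (5 of 7 measured, all lower, median −1.10) and mast cell markers (6 of 6, all lower, median −0.73) had lower means with the minimal fusion than with MIG, with 0 called by limma. An unadjusted p under 0.05 was found for 4 of the 5 megakaryocyte markers (Pf4, Gp9, Ppbp and Itgb3) and 2 of the 6 mast cell markers (Cpa3 and Fcer1a), beside 7.61% of all probe sets. The minimal fusion lay below every MIG array for 3 of the 5 and 4 of the 6, beside 6.0% of all probe sets. Ppbp, a platelet chemokine gene, had the largest difference in the megakaryocyte list, −3.59 (SE 0.95, adjusted p = 0.4146). As a mean log2 deviation per array, the megakaryocyte list ran from −0.14 to 1.34 with MIG, −0.79 to 0.16 with CALM-AF10, −0.50 to 1.16 with ΔOM-LZ and −1.04 to −0.40 with the minimal fusion. For the mast cell list the ranges were −0.15 to 1.06, −0.58 to 0.44, 0.02 to 1.23 and −1.0 to −0.21 in the same order. Each measured marker of these 2 lists had a mean above the array median in every group.

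Against the megakaryocyte list Nkx2-3 had r = −0.729 over 12 arrays and −0.776 over 9. Eya1 had r = −0.267 over 12 arrays and 0.591 over 9 against that list, and −0.254 and 0.567 against the mast cell list. Six4 had r = −0.655 and −0.601 against the mast cell list. Their part in the differences of Nkx2-3, Eya1 and Six4 was not tested. Fibroblast and producer-line markers (10 of 10 measured, median −0.02), endothelial (8 of 8, −0.09), skeletal muscle (7 of 7, 0.13), B cell (6 of 7, −0.01) and T and NK cell markers (6 of 6, 0.06) had no called member between the minimal fusion and MIG. Single members of these lists differed more. By limma Fn1 (−1.50), Tek (−1.17) and Nkg7 (0.55) had an unadjusted p under 0.05, each without overlap. Acta1 (0.25) did not overlap either, while Il7r (−1.15) did. Of the 8 blood cell markers 4 were higher and 4 lower, from −1.13 (Csf1r) to 0.11 (Cd34), with 0 called. The muscle list, whose tissue expresses Eya1 and Six4, ran from −0.11 to −0.03 with MIG, −0.16 to 0.14 with CALM-AF10, −0.11 to 0.17 with ΔOM-LZ and −0.03 to 0.19 with the minimal fusion. Against this list Eya1 had r = −0.125 over 12 arrays and −0.921 over 9.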

How the data were processed

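RNA from sorted transduced marrow was hybridized to 12 Affymetrix arrays, 3 per construct. The authors deposited log2 intensities by probe set, which the submitters' processing notes attribute to Affymetrix Expression Console. Its version, summarization and normalization were not given in the sources used here, and nothing was renormalized. An annotation table named genes for 23410 probe sets (21789 with 1 symbol, 1621 with several). These were fitted with limma 3.58.1 in R 4.3.3 (lmFit, eBayes) as 1 mean per construct, leaving 8 residual degrees of freedom. P-values were two-sided, adjusted by Benjamini-Hochberg over all 23410, with a threshold of 0.05. The fit was tested on simulated data with independent noise on each array and differences added to the minimal fusion only. That test does not cover the shared deviation of same-numbered CALM-AF10 and ΔOM-LZ arrays. For a gene with several probe sets the brightest stood. The genes and lists were chosen with earlier results of these data known. Named were the 3 genes, the sine oculis and EYA families, up to 3 genes of each other list with the largest moderated statistic, the 5 most alike genes and up to 3 neighbours a side. The array-by-array pairs with Mecom, Hoxa9 and Eya2 were shown after their values were seen. Replicate numbers paired arrays, by correlation alone, only between CALM-AF10 and ΔOM-LZ. Upstream sequences came from RefSeq. The number of arrays limits the precision.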

Additional observations from a re-analysis of the deposited data

How the results depend on the processing

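Differences of Eya1 and Nkx2-3 that involve the minimal fusion kept their direction under median centring, quantile normalization and each left-out array. The genes were chosen on these arrays, so this is a description only. Against each single construct the groups did not overlap, so leaving out 1 array could not have turned the sign. Between CALM-AF10 and ΔOM-LZ, Six4 turned to −0.038 without CALM-AF10 replicate 3 and to −0.11 without ΔOM-LZ replicate 1, in a range up to 0.32. There Eya1 ran from 0.15 to 0.95 and Nkx2-3 from 0.09 to 0.28. Six4 was too dim to enter a test of probe sets above the median brightness.

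Counts of called probe sets moved more. With 1 array left out, the count for the minimal fusion against MIG ran from 1 to 9, against ΔOM-LZ from 1 to 5 and against CALM-AF10 from 0 to 1. It ran from 0 to 1 for CALM-AF10 against MIG, 0 to 4 for ΔOM-LZ against MIG and 1 to 6 for OM-LZ carriers against the others. With the replicate number as a block the count for the minimal fusion against MIG was 1, against CALM-AF10 0, and for OM-LZ carriers 1. A paired block fit of CALM-AF10 and ΔOM-LZ alone, chosen after seeing the data, called 1. Compared alone, the minimal fusion gave 0 against each of MIG, ΔOM-LZ and CALM-AF10. Against ΔOM-LZ it gave 8 with trend and robust variance and 2 with median centring, which gave 1 for OM-LZ carriers. With all probe sets tested the minimal fusion had 20 against MIG, 17 against ΔOM-LZ and 3 against CALM-AF10, OM-LZ carriers 5, ΔOM-LZ against MIG 2 and CALM-AF10 against MIG 1. Why the counts moved was not tested.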

Other observations

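Over the 9 arrays without the minimal fusion the highest r with Eya1 belonged to Slfn10-ps (0.982), Gimap1 (0.981), Oasl2 (0.981), Klf9 (0.976) and Rtp4 (0.973). Oasl2 and Rtp4 are known as interferon-induced genes. In the minimal fusion, where Eya1 was 1.94 above MIG, these 5 differed from MIG by −0.38, −0.34, 0.11, −0.28 and −0.12 in that order. Mecom, nearest over 12 arrays, had r = 0.956 over the 9 and ranked at 26, and Hoxa10 had 0.899 and ranked at 271. For Nkx2-3 the highest over the 9 arrays were Etv6 (0.956), Wwc2 (0.944) and Slc25a45 (0.935), while Hoxa9 ranked at 224. These rankings were made after the data were seen, over arrays that partly deviate together, and carry no test.

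Hoxa10 was the HOXA gene nearest to Eya1, with r = 0.943 over 12 arrays and 0.899 over 9. Eya1 and Hoxa9 had r = 0.879 over 12 arrays and 0.347 over 9. Six4 and Dok4 had r = 0.903 over 12 arrays and 0.755 over 9.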
